A study of Mus musculus with 12 samples.

Results

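Dio2 (gene ID 13371) encodes type 2 iodothyronine deiodinase, and it carried 5 of the 739 differential N6-methyladenosine (m6A) sites deposited for cold and thermoneutral inguinal white adipose tissue (iWAT). Its sites were defined by the gene name Dio2 in the table of sites higher in cold and in the table of sites lower in cold. All 5 were in the first table and 0 in the second. Over all genes 40.7% of sites were higher in cold, and 38.9% of the 574 genes had at least 1 higher site. The tables hold only sites that the authors' differential call had selected on fold, p-value and length, so direction, fold and p-value describe the Dio2 sites and were not tested again.

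iWAT, the subcutaneous fat pad of the groin, came from young adult male mice, C57BL/6 in the labels and C57BL/6J in the methods of the study, for which the labels give no genetic change, after 7 days at 4 °C (the cold group) or 30 °C (the thermoneutral group). In MeRIP-seq an antibody against m6A enriches methylated fragments of mRNA (m6A IP), and RNA without that enrichment is sequenced beside it (input). There were 12 libraries, 3 m6A IP and 3 input at each temperature. The comparison asked which transcripts change in m6A signal while beige adipocytes, which make heat, form in white fat. The tables name the groups C and T only, taken here to stand for cold and thermoneutral. The tables analysed here give the result of the comparison. They have 0 columns of single libraries, so the depth is unknown and no fold has an SD or an n, and whether the numbered samples are separate mice is not stated in the labels. The sources used here do not say if the inputs entered the comparison, so a higher amount of Dio2 mRNA in cold and a higher methylation of it cannot be told apart.

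Type 2 deiodinase converts the prohormone thyroxine into the active hormone triiodothyronine inside the cell. In brown and beige adipocytes noradrenaline raises Dio2 through cAMP, and the hormone made there supports the heat-producing program, Ucp1 included. The enzyme is a selenoprotein: UGA, otherwise a stop codon, is read in its coding sequence (CDS) as selenocysteine, which needs a stem-loop element in the 3' untranslated region (UTR). m6A is written on adenosines in a short sequence context, often in long last exons and near stop codons, and reader proteins that bind it can change how long an mRNA lasts or how well it is translated.

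The single GENCODE transcript of Dio2 lies on the minus strand of chromosome 12, 90724552 to 90738438 of mm10, and is 5815 bases long after splicing. Exon 1 has 376 bases, the 5' UTR of 154 bases and the first 222 bases of the CDS. Exon 2 has 5439 bases, the other 579 bases of the CDS and a 3' UTR of 4860 bases, which makes up 83.6% of the transcript. The intron between them has 8072 bases. RefSeq, another annotation, has an exon 1 of 976 bases that begins 600 bases further upstream. Places and shares below are on the GENCODE transcript unless RefSeq is named. The 5 sites are numbered here from the 5' end to the 3' end of the transcript. The stretches printed next show the m6A sequence context inside each site. They are read 5' to 3' on the transcribed minus strand, with GGAC, the core of the consensus m6A motif, in capitals where the site holds it. The GGAC nearest the middle of the site was taken. Site 5 holds 0 GGAC, and there the capitals mark the nearest DRACH to its middle, a wider pattern in which D is any base but C, R is a purine and H is any base but G. The antibody does not show which adenosine in a site is methylated.
Site 1, GGAC at chr12:90738278-90738281: ggcagagaagatgGGACtcctcagcgtaga
Site 2, GGAC at chr12:90729094-90729097: tgcgtgtgctctgGGACcagaggaccataa
Site 3, GGAC at chr12:90727196-90727199: ggctgactgtcagGGACgcagacgtgttca
Site 4, GGAC at chr12:90725639-90725642: cagtagtgtcttgGGACtgtcctgagtccc
Site 5, DRACH at chr12:90724753-90724757: ccttagcaaggagGAACAtttgggtcatgg

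Site 1 covered the whole of GENCODE exon 1, and its GGAC follows directly on the start codon, which is the atg before the capitals. It ran from 90738063 to 90738438 (376 bp), with 154 bases of 5' UTR and 222 bases of CDS, and its midpoint fell in the CDS. In the authors' deposited table its signal was 30.1-fold higher in cold (p = 3.36e-09, FDR 1.45e-07). On the opposite strand the first exon of the long non-coding RNA Gm26512 overlaps 100 bases of this site, which is 26.6% of it. The sources used here do not state that reads were kept by strand, so reads of Dio2 and of Gm26512 in these 100 bases cannot be told apart.

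Site 2 spanned the end of the coding sequence. It ran from 90728462 to 90729800 (1339 bp) and took in 389 bases of CDS, the stop codon included, and the first 950 bases of the 3' UTR. Its fold was 214 in the authors' deposited table (p = 4.96e-08, FDR 5.56e-07). This was the longest Dio2 site, and only 13 of the 301 higher sites of all genes were longer.

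Sites 3, 4 and 5 lay wholly in the 3' UTR. Site 3 (90726942 to 90727520, 579 bp) began 1892 bases beyond the stop codon and had the smallest Dio2 fold, 18.8 in the authors' deposited table (p = 7.5e-08, FDR 7.91e-07). Site 4 (90725322 to 90725800, 479 bp) began 3612 bases beyond the stop codon, with a fold of 133 (p = 1.92e-08, FDR 2.69e-07) in the authors' deposited table. Site 5 (90724552 to 90725000, 449 bp) began 4412 bases beyond the stop codon and reached the last base of the GENCODE transcript. Its listed fold was 567.9 in the authors' deposited table (p = 4.27e-09, FDR 1.45e-07). Both ends of site 1 and the outer end of site 5 coincide with GENCODE exon bounds. Whether the sites were cut at these bounds was not tested, so the signal may reach further.

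**Figure D1:**
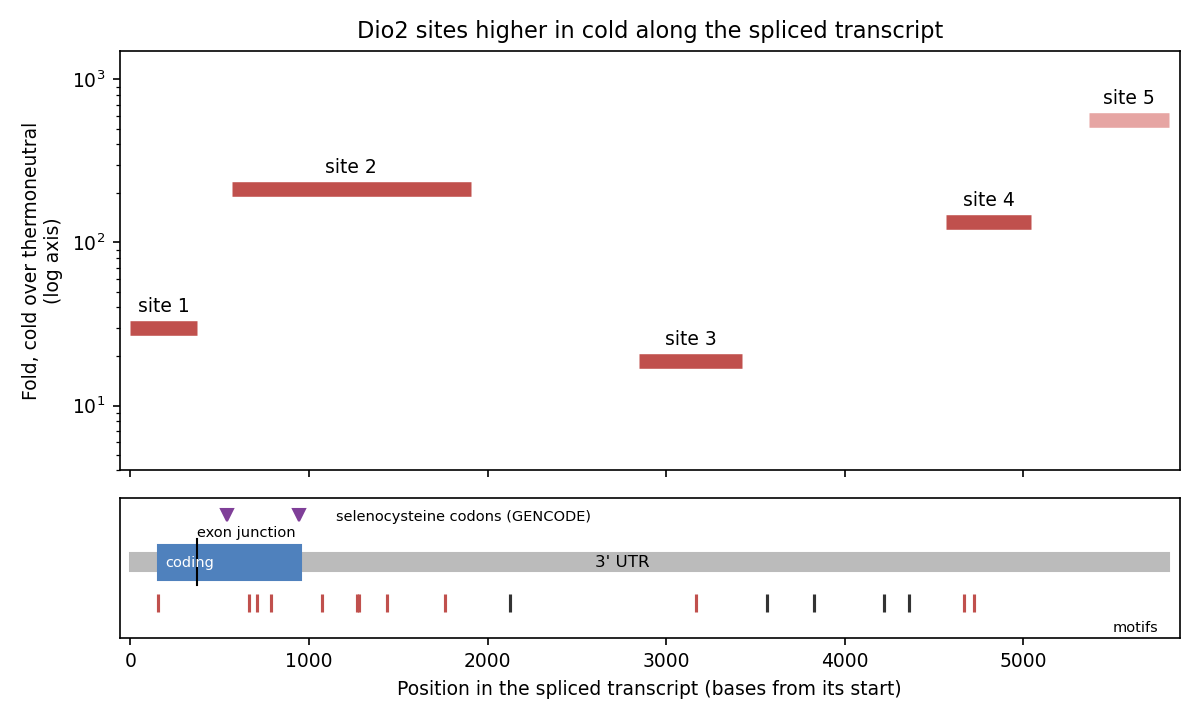
Upper panel, the fold of each Dio2 site (cold over thermoneutral, log axis) against its position in the spliced transcript in bases, each bar as long as its site; the paler bar is the fold that is a whole multiple of 0.1. Lower panel, the UTRs in grey, the coding sequence in blue, the GENCODE selenocysteine codons as triangles, and GGAC motifs as ticks, red inside sites and black outside; the bars of sites 1 and 3 lie lowest, at 30.1 and 18.8, and that of site 5, the whole multiple, stands at 567.9.

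The folds did not fall or rise steadily along the transcript. From the 5' end to the 3' end they were 30.1, 214, 18.8, 133 and 567.9. Site 3 lay between 2 sites with larger folds, and that of site 4 was 7.11 times its own. Among sites 1 to 4 the fold of site 2 was 11.4 times that of site 3, a range of 3.51 on the log2 scale. With the listed value of site 5 the ratio was 30.3 and the range 4.92. The p-values ran in another order. The smallest belonged to site 1, whose fold was the second smallest, and the largest p was 22.3 times the smallest. All 5 folds were above 11.8, the median of the 301 higher sites, and sites 2 and 4 were above the upper quartile of 62.7, as was the listed value of site 5.

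The fold of site 5 is a whole multiple of 0.1 (tolerance 1e-06 after multiplying by 10), which held for 36 folds among the 301 higher sites. Their median fold was 281, against 9.65 for the other 265 higher sites. Comparisons that rest on the size of the fold of site 5 are therefore given with and without it, except the distances to other genes. Among the 265 other folds, that of site 2 was the 4th largest and that of site 4 the 14th largest, while sites 1 and 3 stood at places 67 and 88. These places describe the tables, and no error is known for any of the folds.

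**Figure D2:**
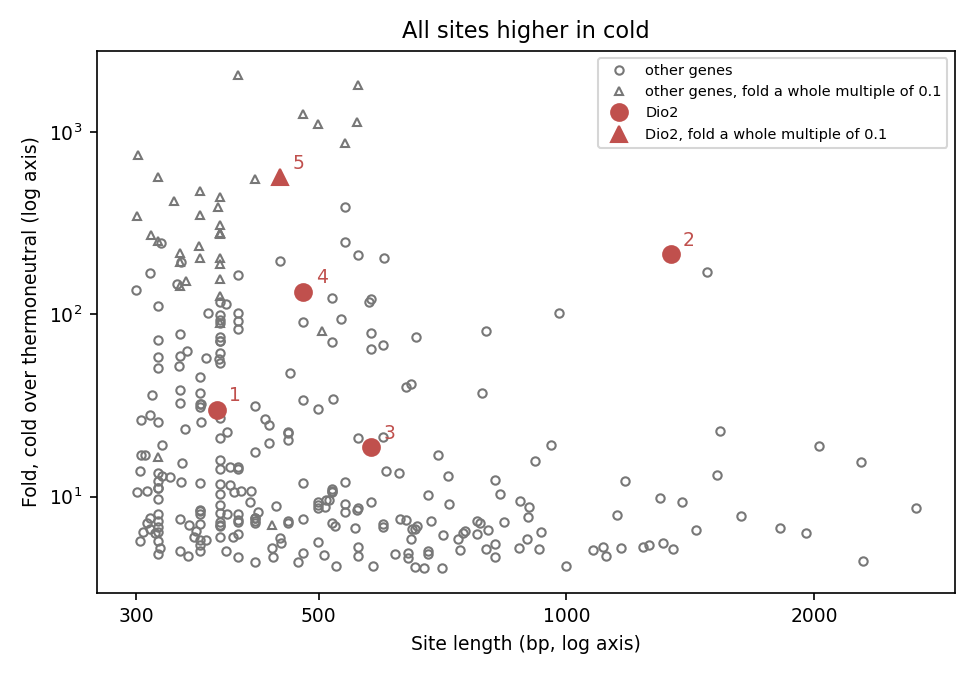
Fold (cold over thermoneutral, log axis) against site length in bp (log axis) for all 301 sites higher in cold; Dio2 sites are filled and numbered, other genes are open, and triangles mark folds that are whole multiples of 0.1. Most of the largest folds are triangles, and site 2 combines a length of 1339 bp with a fold of 214.

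The sites were spread over the GENCODE transcript from end to end and left 4 gaps. Site 2 began 190 bases after the end of site 1 in the spliced transcript, although 8262 bases of the genome lie between them. The gap between sites 2 and 3 had 941 bases, that between sites 3 and 4 had 1141 bases and that between sites 4 and 5 had 321 bases. The median length of the Dio2 sites was 479 bp, against 419 bp for all higher sites. Together the sites covered 3222 bases, which is 55.4% of the transcript. By region they covered the GENCODE 5' UTR entirely, 76.3% of the CDS (611 of 801 bases) and 50.6% of the 3' UTR (2457 of 4860 bases). The 2593 bases outside sites were all in exon 2. The further 600 bases of exon 1 in RefSeq also lay outside every site, and shares of the RefSeq transcript are not given here. The intron held none of the sites. A gap says only that no difference of the size kept in these tables was listed there.

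The stretch of CDS outside the sites holds the selenocysteine codon of the active centre of the enzyme. GENCODE reads 2 in-frame UGA codons of Dio2 as selenocysteine and ends the CDS at codon 267, whereas RefSeq reads 1 and ends the CDS at the second. The 3 codons are printed here in capitals, as DNA with T in place of U, on the minus strand of chromosome 12, since their place relative to site 2 is what the annotation adds to the map.
Codon 130 at chr12:90729823-90729825: tggttcagccaccTGAccacctttcacta
Codon 263 at chr12:90729424-90729426: tttcagcaagagaTGAattctagattagc
Codon 267 at chr12:90729412-90729414: atgaattctagatTAGctggatacaagtg

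Codon 130, a selenocysteine in both annotations, lay in the gap of 190 bases after site 1, its last base 23 positions before the first base of site 2. Codons 263 and 267 lay inside site 2. The stem-loop element of the 3' UTR was not located here, so its place relative to the sites and gaps was not examined.

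Over the 5 Dio2 sites together the GGAC motif was more frequent than in the rest of the 3' UTR, and the DRACH motif was not. The transcript holds 17 GGAC, of which 12 were inside sites and 5 outside (transcribed strand only, overlapping matches counted). Inside sites this is 3.72 per kb, against 2.08 per kb in the 2403 bases of 3' UTR outside sites, a ratio of 1.79. From site 1 to site 5 the density was 2.66, 5.97, 1.73, 4.18 and 0 per kb. Site 2 thus lay highest and sites 3 and 5 lay below 2.08, and the ratio without site 2 was not computed. The sites also hold 5' UTR and CDS, and with only the 3' UTR bases inside sites the density was 3.26 per kb and the ratio 1.56. DRACH, which includes GGAC before any base but G, was found 68 times inside sites, 21.1 per kb, against 24.6 per kb in the 3' UTR outside, a ratio of 0.86, which was also 0.86 within the 3' UTR. Base composition differed as well: the sites were 46.4% G and C and the 3' UTR outside them 38.5%, and its part in the GGAC ratio was not tested. The sites of 1 transcript are not replicates, so these densities are a description with no test.

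Most of the GGAC motifs inside sites lay in site 2, which was also the longest site. Site 2 held 8 of the 12 inside sites, 5.97 per kb, of which 3 were in the last part of the CDS and 5 in the 3' UTR between 118 and 805 bases beyond the stop codon. Site 4 held 2, and sites 1 and 3 held 1 each. Site 5 held 0 GGAC and 8 DRACH. The gap between sites 3 and 4 held 4 GGAC, 3.51 per kb, which was more per kb than site 1 (2.66) or site 3 (1.73). Dio2 was not particular in having GGAC at all: 83.8% of the 709 sites of other genes whose strand was known held at least 1, with a median of 3.93 per kb over the 285 higher sites among them. Of 323 sites of other genes within 20% of the length of site 5, 82.4% held a GGAC. All 21 sites within 20% of the length of site 2 did, with a median of 4.63 per kb. DRACH was in all 709 sites of other genes.

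**Figure D3:**
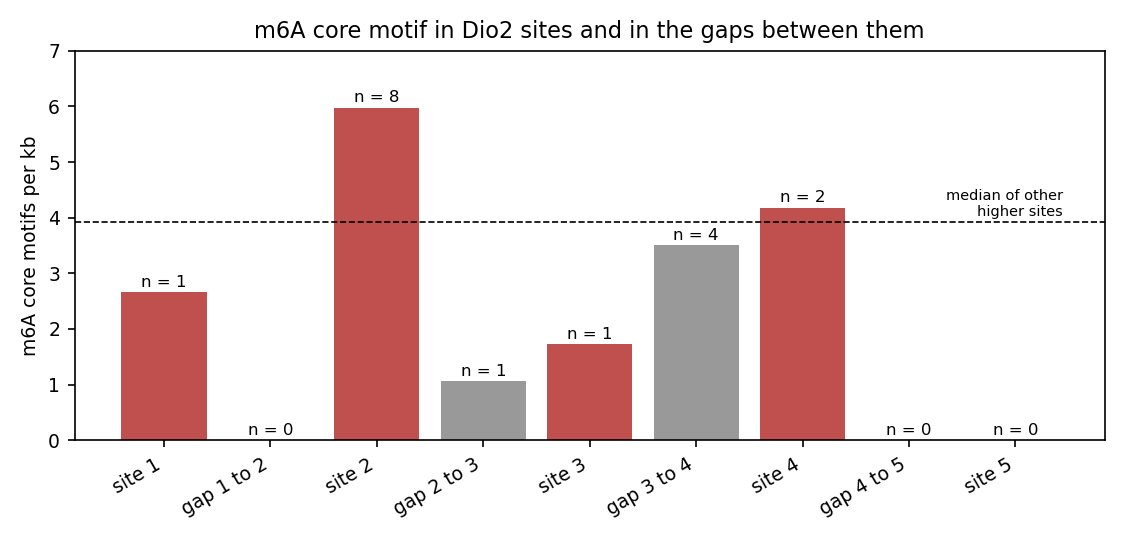
GGAC per kb (bars, from 0, with the number of motifs above each) in the 5 Dio2 sites (red) and in the 4 gaps between them (grey), in transcript order; the dashed line is the median of 3.93 per kb over 285 higher sites of other genes. Site 2 is highest with 8 motifs, and site 5 and 2 of the gaps hold none.

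Few transcripts in the tables carried as many sites. Of the 574 genes, 471 had 1 site, 77 had 2 and 26 had 3 or more. Only Ttn, encoding the giant muscle protein titin, with 28 sites and Prune2 with 6 had more sites than Dio2, and 6 genes had 4. In Prune2 5 sites were higher and 1 lower, so Dio2 came after Ttn in number among genes with sites in 1 direction only. By total length of sites Dio2 was 4th, behind Ttn (14563 bp), the fatty acid elongase Elovl6 (4974 bp) and Prune2 (4106 bp). The 28 sites of Ttn covered 13.6% of its transcript of 106824 bases, while the 5 sites of Dio2 covered 55.4%. Over the 553 genes with a coding transcript the median share was 11.8%, and Dio2 had the 14th largest share. Of 25 such genes with 3 or more sites, Elovl6 (83.6%), Pgam1 (73.1%) and Kcnk3 (69.5%) had larger shares.

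Among genes with at least 3 sites that all changed in 1 direction (22 genes, 9 higher and 13 lower), Dio2 had the largest median fold of the 9 higher ones, 133 in the authors' deposited table against 62.7 for the next. Without folds in whole multiples of 0.1, in all genes, its median was 81.7 and the next 50.6. The Dio2 median was 81.7 without site 2 as well. By number of sites, signed median log2 fold and log2 span over the genome, each divided by its SD over the 22 genes, the 3 genes most like Dio2 were Pgam1 (distance 0.91), Fam210a (distance 0.91) and Kcnk3 (distance 0.998). The farthest was Ttn (distance 4.83). With the 28 sites of Ttn included, the SD of the number of sites was 5.28, so small differences in number weighed little. The higher gene with the next largest median fold, 62.7, came 7th by distance. These distances are given with site 5 only. Pgam1 encodes the glycolytic enzyme phosphoglycerate mutase and had 3 higher sites, with folds of 6.35, 13.8 and 24.8 in the authors' deposited table. Fam210a had 3 higher sites with folds of 6.41, 12.2 and 81.2. Kcnk3, which encodes a potassium leak channel, had 4 higher sites with folds of 4.74, 5.08, 26.5 and 122. The median fold of each of the 3 was below the smallest fold of Dio2, 18.8. The log2 folds of Dio2 spanned 4.92 with site 5 and 3.51 without it, against 4.68 for Kcnk3, 3.66 for Fam210a and 1.97 for Pgam1, which have no fold in whole multiples of 0.1. The Dio2 span was thus wider than those of Kcnk3 and Fam210a only with site 5. It was the 4th widest of the 22 genes, and the 6th widest without such folds in any gene.

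**Figure D4:**
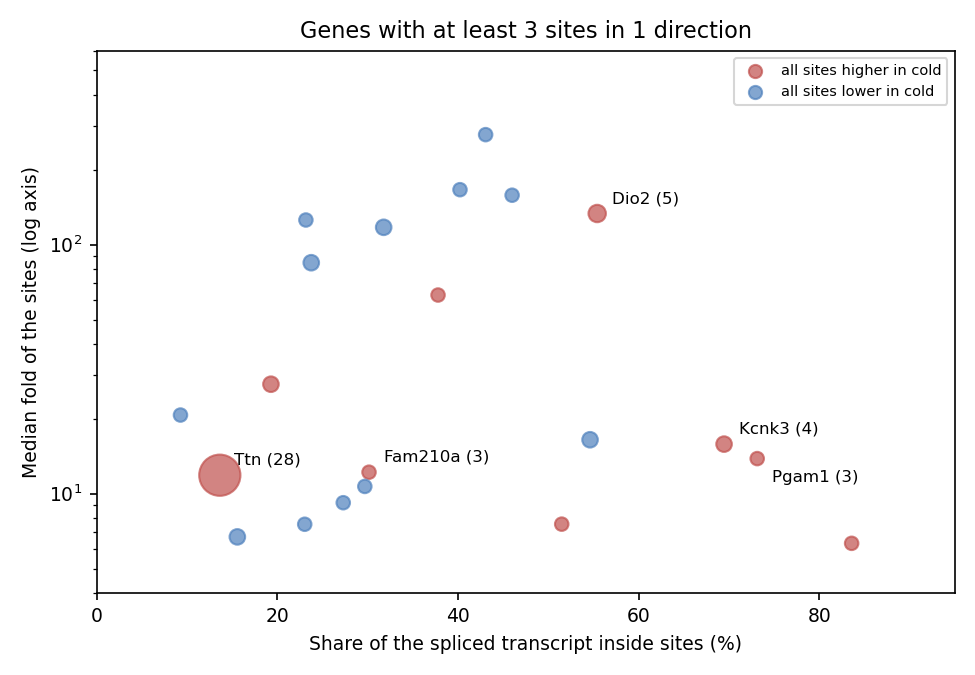
Median fold of the sites (log axis) against the share of the spliced transcript inside sites (%), for the 21 genes with at least 3 sites in 1 direction and a coding transcript; red genes were higher and blue genes lower in cold, and the area of a point follows the number of sites, given in parentheses for named genes. Dio2 lies at 55.4% and a median fold of 133, above the other red genes, and 3 blue genes lie higher.

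Of all 21900 protein-coding genes in RefSeq, expressed in iWAT or not, 2.48% had a site, which is the background for the gene lists that follow. Dio2 was chosen for its sites, so its count among the list members with a site was fixed beforehand. Of 25 symbols of thyroid hormone action, from hormone transporters to nuclear receptors and their coregulators, Dio2 and Rxra had a site and the other 23 had none. Rxra encodes a retinoid X receptor that pairs with thyroid hormone receptors on DNA, and in the authors' deposited table its 1 site, in the 3' UTR, was 10.3-fold higher. The deiodinases Dio1 and Dio3 and the receptors Thra and Thrb had no site. Of 9 genes for the ubiquitination, deubiquitination and breakdown of the enzyme, such as Wsb1 and Usp33, 0 had a site. Of 24 selenoprotein genes, Dio2 and Selenoi had one, and the 1 site of Selenoi was lower in cold, with a fold of 189 in the authors' deposited table. Of 12 genes of selenocysteine insertion 0 had a site. Of 25 genes listed for the control of Dio2, mostly of the route from beta-adrenergic receptors over cAMP, 3 had a site. Pde4d, a phosphodiesterase that breaks down cAMP, was 5.54-fold higher. The midpoint of its site lay outside the exons of the transcript used. Crtc3, a CREB coactivator, was 23.5-fold lower. Foxo3, a forkhead transcription factor, was lower at both of its sites, with folds of 37.2 and 406.3. These folds are from the authors' deposited table. The receptor gene Adrb3 had no site. A gene without a site had no listed change past the limits of the tables, and says nothing of its expression.

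Marker genes of other tissues moved beside Dio2. These lists too were read beside the 2.48% of all genes, and the count of Dio2 in its own list was fixed beforehand. Of 8 markers of beige or brown adipocytes 6 had a site, Dio2, Ucp1, Cidea, Cpt1b, Otop1 and Ppargc1a, all higher in cold. Of 10 skeletal muscle markers 8 had a site, all higher too, and their part in the Dio2 signal was not tested. Of 5 markers of brain or glia, where Dio2 is also active, 0 had a site. Of 9 adipocyte markers only Lep had one, which was lower, and of 5 macrophage markers C1qa and Lyz2 had one, both lower. The labels name the tissue as iWAT and its source as adipocytes. Levels were not analysed here, so the labelled tissue could not be checked by the presence of its markers, and more transcript per cell and more cells that make it cannot be told apart.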

How the data were processed

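The members and gene lists were chosen with earlier results of these data known. MeRIP-seq of iWAT gave 12 libraries, grouped by sample title. Per the methods of the study, cutadapt trimmed the reads, Hisat2 aligned them to mm10, MACS2 called peaks and diffReps called differential sites. Bowtie 0.12.2, MACS2, HOMER, mm8 and mm10 stand in the submitters' processing notes. The authors deposited, per differential site, a fold (linear ratio, larger over smaller group), a p-value, a false discovery rate (FDR), a score equal to −log10 of the p-value, and positions. Among the listed sites the smallest fold was 4.006, the largest of the authors' p-values 9.65e-06 and the shortest length 300 bp. These are extremes of the values, and the limits that the authors set may lie beyond them.

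Starts were read as counted from 0; the starts of sites 2, 3 and 4 may be 1 bp off. Sites were placed by midpoint on GENCODE M21 (GRCm38), and sequence was read from GRCm38.p6 (RefSeq), both the assembly of mm10. GGAC and DRACH were counted on the transcribed strand. The strand was known for 714 of 739 sites. Python 3.11.15, pandas 2.3.3, numpy 2.4.6 and matplotlib 3.10.9 were used, and functions were tested on simulated data. Genes named beside Dio2 were those with 5 or more sites, list members with a site, and the 3 nearest by Euclidean distance over 3 standardised measures. Elovl6, Foxc1, Dio1, Dio3, Thra, Thrb, Wsb1, Usp33, Adrb3 and Gm26512 were named after their values were seen. No test across samples was possible, because the authors' tables hold no value of a single library. Alternatives were stricter limits, joined sites, other placements, motifs and annotations.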

Additional observations from a re-analysis of the deposited data

How the results depend on the processing

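No paired analysis was possible because the columns carry no replicate. Of 25 alternatives over 6 results, 20 stayed within 1.5 times the value given. The number of Dio2 sites was 5 with a fold of at least 8, with a p-value of at most 1e-07 and with sites within 100 bp joined. These settings are among the 20 but could not lower the number. The smallest Dio2 fold was 18.8, the largest of the authors' p-values for Dio2 7.5e-08 and the smallest gap in the genome 321 bases. The number was 4 without the fold that is a whole multiple of 0.1 and with sites within 500 bp joined. The median fold of 133 was 81.7 without that fold, and between 81.7 and 174 when each site was left out in turn; it fell by more than 1.5 times without site 2 or site 5. With DRACH in place of GGAC the ratio of motif density inside sites to that in the 3' UTR outside went from 1.79 to 0.86, a reversed direction whose cause was not tested. With only 3' UTR bases counted inside sites, chosen after seeing the data, the ratio was 1.56 for GGAC and 0.86 for DRACH. With every base required inside the 3' UTR, 3 sites lay there in place of 4. A RefSeq transcript and the 3' UTR in place of the last exon, both chosen after seeing the data, left 4 sites in the 3' UTR and 50.6% covered against 52.3% of the last exon. In the order of genes by number of sites Dio2 was 3rd; it was 4th by total length, and 2nd with a fold of at least 8 and with sites within 100 bp joined. The depth is unknown.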
